A study of Mus musculus with 19 samples.

Results

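Aminoacyl-tRNA synthetases are the enzymes that join each amino acid to its transfer RNA, and 35 of their genes were followed in mammary tumor cells from lean and obese mice. The 35 were the rows of a 39017-gene count table whose identifier mapped to a named synthetase: 19 that act in the cytosol, 15 that act in mitochondria, and Lars2, the mitochondrial leucyl enzyme, which was kept apart because counts at its locus can follow ribosomal RNA reads. The cells were E0771, a mouse mammary carcinoma line that carried the red fluorescent protein mCherry, and each library came from mCherry-positive cells sorted out of a single dissociated tumor. Hosts were c57bl6 mice, lean on Chow or obese on HFD as the sample names pair them, and tumors were taken from the mammary fat pad at a midpoint of day 14 or an endpoint of day 21. The groups compared held 4 lean midpoint, 5 obese midpoint, 4 lean endpoint and 5 obese endpoint libraries. Host age and sex were not given in the sources used here, and all hosts carried the same implanted line, so there was no group without tumor and no cultured reference.

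Every synthetase binds its own amino acid, activates it with ATP and loads it onto the matching transfer RNA, which the ribosome then reads. Mammalian cells keep a cytosolic set, of which several enzymes sit together in a multisynthetase complex, and a separate nuclear-encoded set that is imported into mitochondria to serve the proteins made from the mitochondrial genome. Gars and Kars each serve both compartments from a single gene and are counted here with the cytosolic set. Many cytosolic synthetase genes are known targets of ATF4, the transcription factor of the amino acid response, which binds elements close to TGATGCAA. Wars, the tryptophanyl enzyme, is in addition known to be induced by interferon-gamma.

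The promoters of 4 cytosolic genes are shown because they hold an exact copy of that ATF4-type element, and the directions of these 4 genes are given later. Promoters came from RefSeq, build GRCm38.p6, as 250 bases before to 50 after a gene's start, and 26 of the 35 members matched. The capitals mark TGATGCAA, or TTGCATCA where it lies on the opposite strand, and each sequence runs 5′ to 3′ along the gene's strand.
Yars (chr4:129189653-129189952, + strand): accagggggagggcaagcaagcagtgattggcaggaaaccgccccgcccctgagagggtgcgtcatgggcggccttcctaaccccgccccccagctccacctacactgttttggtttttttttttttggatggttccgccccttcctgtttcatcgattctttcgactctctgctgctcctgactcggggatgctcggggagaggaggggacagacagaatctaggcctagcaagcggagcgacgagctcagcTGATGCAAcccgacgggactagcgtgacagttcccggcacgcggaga
Aars (chr8:111033592-111033891, + strand): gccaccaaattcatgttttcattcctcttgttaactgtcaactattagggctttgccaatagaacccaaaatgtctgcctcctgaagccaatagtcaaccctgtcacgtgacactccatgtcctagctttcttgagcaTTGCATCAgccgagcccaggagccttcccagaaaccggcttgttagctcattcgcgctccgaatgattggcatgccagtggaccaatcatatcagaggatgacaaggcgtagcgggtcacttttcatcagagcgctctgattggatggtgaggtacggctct
Iars (chr13:49681880-49682179, + strand): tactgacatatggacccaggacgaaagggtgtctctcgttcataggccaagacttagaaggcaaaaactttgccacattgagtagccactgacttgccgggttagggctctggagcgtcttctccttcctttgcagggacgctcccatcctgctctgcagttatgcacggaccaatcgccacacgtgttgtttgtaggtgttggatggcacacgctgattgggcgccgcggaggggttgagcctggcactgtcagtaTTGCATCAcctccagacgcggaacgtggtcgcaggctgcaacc
Tars (chr15:11399609-11399908, - strand): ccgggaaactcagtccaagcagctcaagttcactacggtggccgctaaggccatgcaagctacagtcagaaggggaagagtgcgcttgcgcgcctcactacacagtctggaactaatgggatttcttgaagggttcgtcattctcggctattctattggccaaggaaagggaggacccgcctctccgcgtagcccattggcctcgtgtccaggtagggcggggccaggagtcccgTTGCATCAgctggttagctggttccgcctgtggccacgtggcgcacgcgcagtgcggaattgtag

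Searched on both strands, TGATGCAA was found in 4 of 12 cytosolic promoters, or 33.3%, in 0 of 14 promoters of mitochondrial synthetases, and in 0.895% of all 32851 promoters in the table. The looser TGATGNAA, which includes every TGATGCAA match, was found in 5 of 12 cytosolic promoters (41.7%), the added gene being Gars, against 3.97% of all promoters and again 0 of the 14 mitochondrial ones. CACGTG, the E-box letters, was in 33.3% of the cytosolic promoters (Farsb, Aars, Iars and Tars), in 7.14% of the mitochondrial ones and in 7.15% of all. TTCNNNGAA, the letters of a STAT-type element, was in 16.7%, 7.14% and 8.3% in the same order. The letters of an interferon-stimulated response element were in 8.33% of cytosolic promoters (Qars), in 0 of the mitochondrial ones and in 3.44% of all. These are matches of letters in a window of 300 bases, and no binding was measured. The cytosolic members Cars, Hars, Lars, Nars, Rars, Vars and Wars had no matched promoter. Neither the STAT-type nor the interferon letters were therefore searched for in Wars.

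Libraries held 44174080 to 56996252 counts each. A further lean endpoint library, replicate 4, was left out of every comparison: its counts summed to 11889188, and 24 of the 35 members stood at 0 in it. Lean endpoint replicate 1 stood apart, with 44.7% of its counts on mitochondrial genome genes and 0.772% on rRNA-like genes, against 5.79% to 24.4% and 0.0409% to 0.533% in the other 17 libraries. Obese midpoint replicates 2 and 3 carried the steepest relation between a gene's GC content and its level. The slope of that relation, taken on log2 CPM less each gene's mean, also separated the times. It was above 0 in every midpoint library and below 0 in every endpoint library. Of 7 epithelial markers, Epcam, Krt18, Krt7, Krt19 and Cdh1 averaged at or under 0.112 CPM (a count relative to the total of its library) and Krt8 averaged 31.4 (Cldn7 averaged 0.626). Of other cell types, 14 macrophage and monocyte markers averaged from 0.276 (Cx3cr1) to 55.9 CPM (Cd68), with a median of 17.8. The 9 fibroblast markers averaged from 0.142 (Fap) to 1689 (Col3a1), with a median of 5.30. Of 5 fat cell markers, Fabp4 averaged 14.97 CPM and the other 4, Adipoq and Lep among them, 0.438 or less. In RNA from a sorted bulk population, fewer cells of a type and less RNA per cell cannot be told apart.

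All levels are CPM with libraries scaled by TMM factors, and all 35 members passed the filter on low counts, as did 16352 of the 39017 genes. Changes are log2 fold changes with their standard error from edgeR's quasi-likelihood test, called at an adjusted p under 0.05 over all 16352 genes. Because libraries differed in how level depended on GC content and the members span 38.8% (Mars2) to 60.9% GC (Vars), each change is also given after a per-library correction for GC content and length. Across the 34 members other than Lars2, Pearson's r between GC content and log2 fold change was -0.76 for endpoint against midpoint in obese hosts, -0.66 for the same in lean hosts and 0.78 for obese against lean at midpoint, and across all genes with a GC value it was -0.69, -0.57 and 0.60. These values are descriptions over genes that share libraries.

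**Figure D1:**
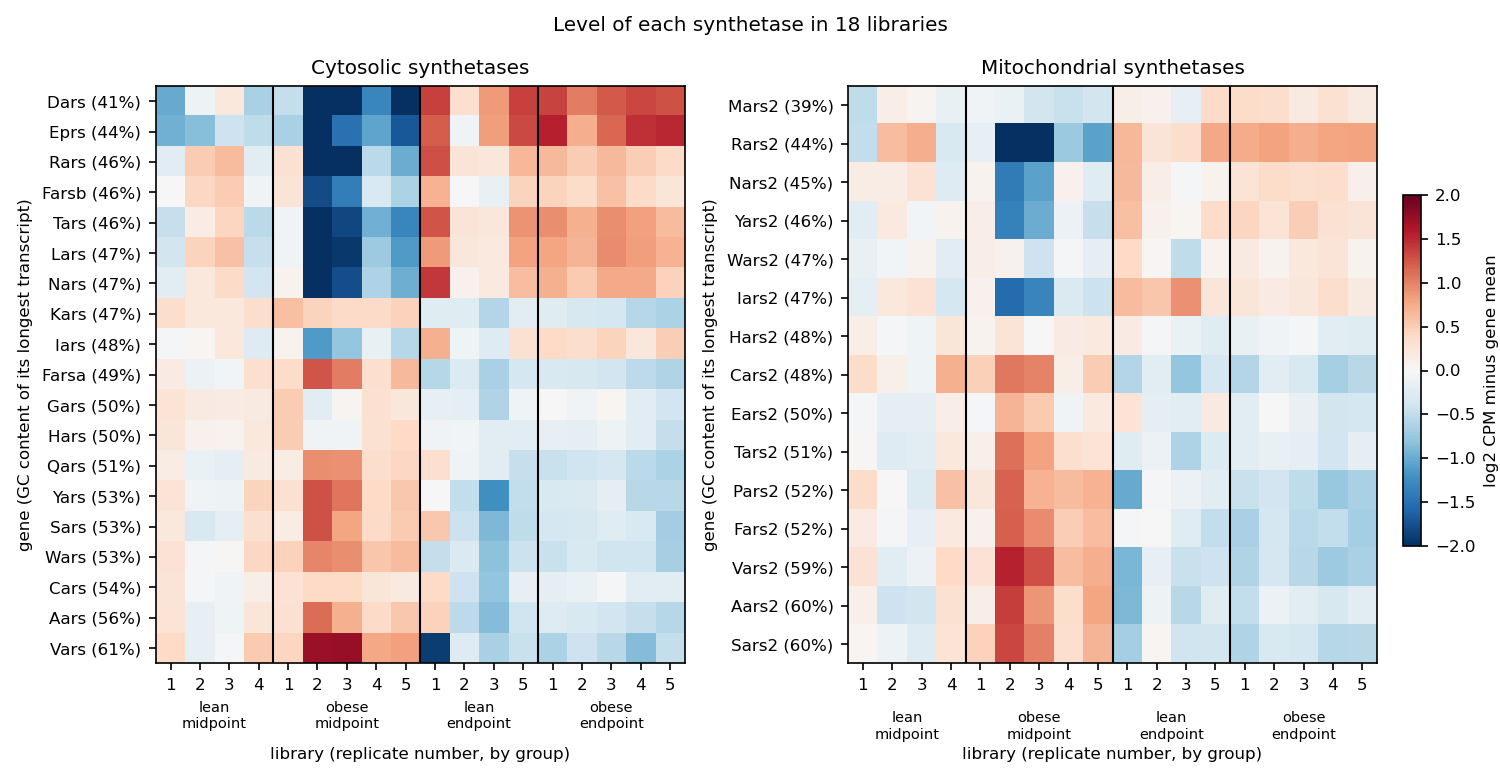
Level of each of 34 synthetases in 18 libraries, as log2 CPM minus the gene's own mean (colour scale from -2 to 2), with genes ordered by the GC content of their longest transcript and libraries grouped by host and time. Obese midpoint replicates 2 and 3 hold many of the darkest cells, blue for members of low GC content such as Dars. Members of high GC content such as Vars are red there. For Dars, obese midpoint replicate 5 is similarly low.

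Cytosolic synthetases were present at far higher levels than mitochondrial ones. Per kilobase of gene model, Kars, the lysyl enzyme, had the highest level at 215 CPM per kb, averaged over the 4 group means, followed by Sars at 142, Nars at 120.3 and Gars at 117. The lowest cytosolic levels per kb were those of Yars at 11.5 and Wars at 12.8. Among the mitochondrial enzymes Iars2 was highest at 18.5 CPM per kb, above Wars and Yars, and Wars2 was lowest at 1.67. The difference between the mean log2 CPM of the cytosolic and of the mitochondrial class was 3.21 ± 0.11 (SD, n = 4) in lean midpoint, 2.92 ± 0.24 (n = 5) in obese midpoint, 3.30 ± 0.26 (n = 4) in lean endpoint and 3.40 ± 0.08 (n = 5) in obese endpoint libraries. The obese midpoint range, 2.61 to 3.25, lay below that of obese endpoint, 3.29 to 3.5, and overlapped that of lean midpoint, 3.09 to 3.35. After the GC and length correction the class difference was 3.18 ± 0.10, 2.91 ± 0.23, 3.30 ± 0.26 and 3.43 ± 0.08 in the same order. The ratio of summed cytosolic to summed mitochondrial CPM ordered the groups otherwise, at 10.80 ± 0.68, 11.46 ± 0.44, 9.77 ± 2.78 and 11.02 ± 0.61. Obese midpoint was thus lowest by the mean log2 difference and highest by the ratio of sums, so the direction depends on the measure.

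The time course in obese hosts moved almost the whole family, and it moved members in opposite directions. Of the 19 cytosolic enzymes, 8 rose and 10 fell from midpoint to endpoint, and of the 15 mitochondrial ones 5 rose and 8 fell. In this comparison 73.9% of all genes tested were called, 37.8% higher and 36.1% lower. A high count of called genes was therefore not particular to the synthetases. The median log2 change was -0.45 for the cytosolic and -0.50 for the mitochondrial class, beside -0.0015 over all genes tested. The share of counts on mitochondrial genome genes also separated the times, from 5.79% to 12.3% in the 9 midpoint and from 17.1% to 44.7% in the 9 endpoint libraries, with obese means of 6.96% and 21.9%. The mean log2 CPM of 9 fibroblast markers was 2.75 ± 0.29 in obese midpoint and 4.05 ± 0.42 (SD, n = 5 each) in obese endpoint libraries, with 5 markers higher and 3 lower. The part of either in the changes of the synthetases was not tested. After the GC and length correction, 5 cytosolic members rose and 6 fell, 1 mitochondrial member rose and 10 fell, and 54.5% of all genes were called, 30.4% higher and 24.1% lower. The corrected medians were -0.084 and -0.57, beside 0.093 over all genes.

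Eprs, which loads both glutamate and proline and is a core of the multisynthetase complex, showed the clearest rise. It stood at 120.2, 130.4, 175 and 164 CPM in the 4 lean midpoint libraries, at 149, 55.7, 83.6, 113 and 72.2 in obese midpoint, at 539.5, 223, 419.7 and 588 in lean endpoint and at 686, 388, 518, 646 and 668 in obese endpoint. All 9 endpoint libraries lay above all 9 midpoint libraries. The log2 change over time was 2.62 ± 0.28 (SE) in obese hosts, a 6.13-fold rise with an adjusted p of 4.8e-07, and 1.59 ± 0.30 in lean hosts with an adjusted p of 0.000794. After the GC and length correction both changes were smaller and still passed, at 1.18 (adjusted p = 6.98e-06) and 0.77 (adjusted p = 0.00453).

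Dars, the aspartyl enzyme and another member of the complex, changed in the same direction. Its levels were 35.6, 66.6, 82.9 and 45.7 CPM in lean midpoint, 51.5, 14.0, 15.7, 28.9 and 14.9 in obese midpoint, 186, 90.7, 129 and 185 in lean endpoint, and 182, 145, 167, 180.3 and 174 in obese endpoint libraries. As for Eprs, no endpoint library reached down to a midpoint one. Its log2 change was 2.76 ± 0.34 in obese hosts (adjusted p = 1.34e-06) and 1.24 after correction (adjusted p = 3.54e-05). In lean hosts it was 1.35 ± 0.36 (adjusted p = 0.00887), which the correction reduced to 0.48 with an adjusted p of 0.117.

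Kars went the other way, and did so in both hosts. It was at 593, 539, 541 and 598 CPM in lean midpoint, 712, 634, 607, 609 and 643 in obese midpoint, 395, 395, 313 and 403 in lean endpoint, and 396, 374, 368, 314 and 301 in obese endpoint libraries. Every endpoint library lay under every midpoint library. The log2 change was -0.87 ± 0.12 in obese (adjusted p = 5.87e-06) and -0.59 ± 0.14 in lean hosts (adjusted p = 0.00347). The correction did not reduce it, with values of -1.28 (adjusted p = 4.66e-07) and -0.73 (adjusted p = 0.00123).

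Genes of the multisynthetase complex therefore did not move as a block. In obese hosts Dars, Eprs, Lars (log2 change 1.81), Rars (1.36) and Iars (0.84) rose, while Kars and Qars (-1.05) fell. With the GC and length correction, Lars remained higher at 1.22 (adjusted p = 0.000417) and Qars lower at -1.16 (adjusted p = 2.06e-05), and Rars (0.63, adjusted p = 0.0747) and Iars (0.35, adjusted p = 0.0716) no longer passed. Qars, the glutaminyl enzyme, was at 272, 224, 218 and 279 CPM in lean midpoint, 273, 471, 462, 315 and 329.8 in obese midpoint, 311, 231, 212 and 179 in lean endpoint, and 182, 187, 196, 171 and 159.7 in obese endpoint libraries. Its obese midpoint and obese endpoint libraries did not overlap, and its lean libraries did, with a lean log2 change of -0.089 (adjusted p = 0.742).

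Both subunits of the cytosolic phenylalanyl enzyme, which works as a tetramer of alpha and beta chains, changed in opposite directions. Farsa, the alpha subunit, was at 94.1, 76.7, 80.3 and 106 CPM in lean midpoint, 108, 201, 170.2, 106 and 130.4 in obese midpoint, 56.5, 69.1, 53.5 and 65.8 in lean endpoint, and 67.6, 67.2, 64.0, 58.0 and 55.3 in obese endpoint libraries. Farsb, the beta subunit, was at 87.6, 118, 125 and 83.7 CPM, then 105, 25.4, 33.7, 71.6 and 56.5, then 142, 87.6, 79.2 and 119.9, and finally 120.1, 114, 132, 115 and 104 in the same order of groups. In obese hosts over time Farsa fell by 1.20 on the log2 scale (adjusted p = 8.13e-06) and Farsb rose by 1.00 (adjusted p = 0.00375). After correction Farsa was at -1.44 (adjusted p = 5.87e-06) and Farsb was at 0.44 with an adjusted p of 0.0881. Per kb, the ratio of Farsa to Farsb was 0.482 ± 0.166 (SD, n = 4) in lean midpoint, 1.89 ± 1.53 (n = 5) in obese midpoint, 0.320 ± 0.090 (n = 4) in lean endpoint and 0.284 ± 0.023 (n = 5) in obese endpoint libraries. The obese midpoint ratio ranged from 0.547 to 4.19, its highest values coming with the low Farsb counts of replicates 2 and 3. The span of Farsb overlaps Sgpp2 on the opposite strand by 2329 bases, and whether the counting used strand is not given in the sources used here.

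**Figure D2:**
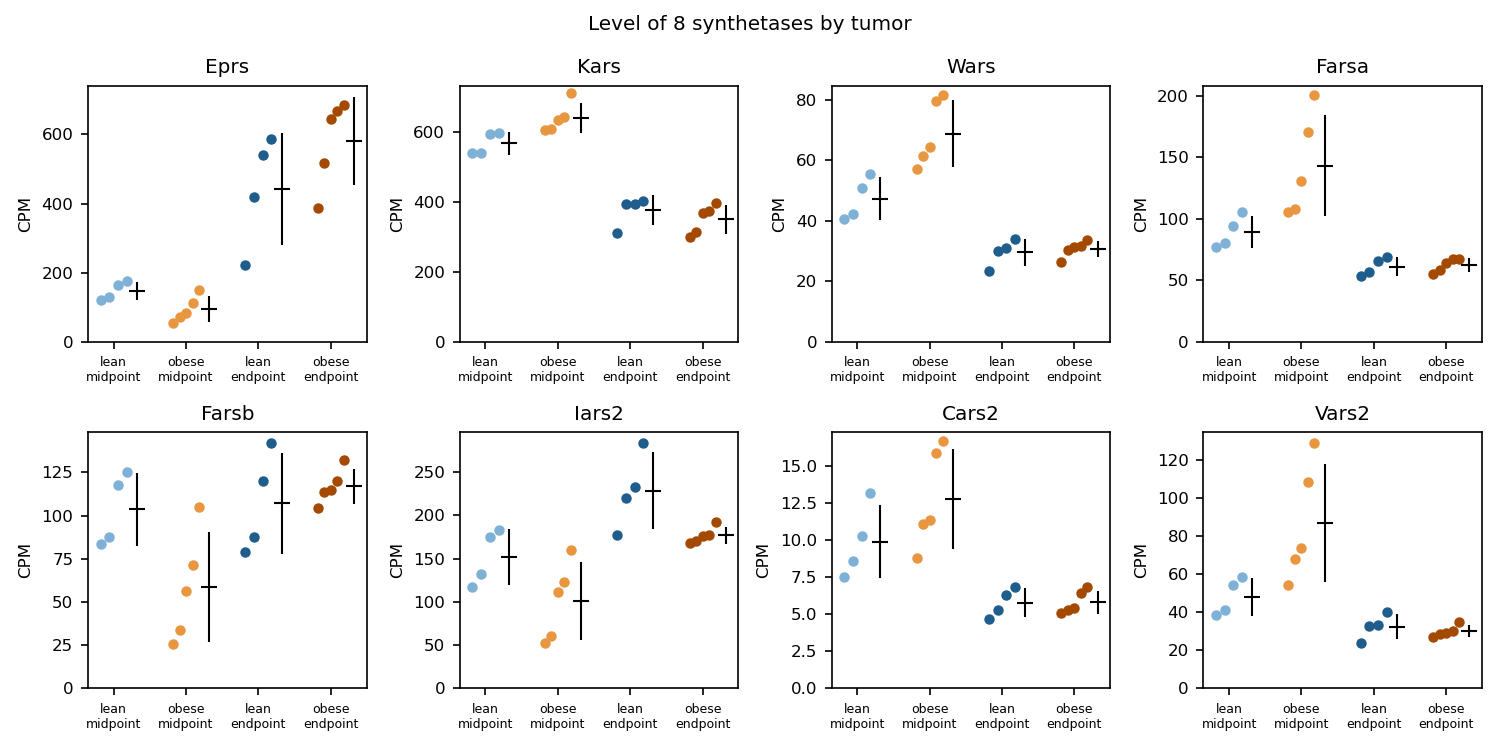
CPM of 8 synthetases in each tumor library by group, with points for libraries and a bar for the mean ± SD beside them; all axes start at 0. Eprs is higher in all 9 endpoint than in all 9 midpoint libraries, Kars and Cars2 are lower in all of them, and Farsa and Farsb take opposite positions in the obese midpoint group.

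Wars fell with time in both hosts. It was at 50.9, 40.5, 42.3 and 55.5 CPM in lean midpoint, 57.1, 81.6, 79.6, 61.3 and 64.3 in obese midpoint, 30.0, 34.1, 23.5 and 31.0 in lean endpoint, and 30.5, 33.7, 31.5, 31.5 and 26.3 in obese endpoint libraries. The midpoint and endpoint libraries were fully separated. Its log2 change was -1.16 ± 0.15 in obese (adjusted p = 2.74e-06) and -0.67 ± 0.17 in lean hosts (adjusted p = 0.00625), and after correction -0.53 (adjusted p = 0.000351) and -0.33 (adjusted p = 0.0481). Gars, the glycyl enzyme, was the only cytosolic member not called over time in obese hosts, at -0.31 with an adjusted p of 0.064. Gars stood at 332, 309, 307 and 309.7 CPM in lean midpoint, 390.2, 236, 285, 339.6 and 321 in obese midpoint, 244, 240.4, 181 and 259 in lean endpoint, and 274, 262, 283, 238 and 211 in obese endpoint libraries.

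Among the remaining cytosolic members in obese hosts, Tars, the threonyl enzyme (1.87), and Nars, the asparaginyl enzyme (1.53), rose, while Vars (-1.78), Yars (-1.15), Sars (-1.05), Aars (-1.03), Cars (-0.46) and Hars (-0.45) fell. With the correction, Tars at 1.33 (adjusted p = 0.000111) and Nars at 1.16 (adjusted p = 0.00146) remained higher, and Vars at -0.81 (adjusted p = 0.000204) and Yars at -0.82 (adjusted p = 0.00149) remained lower. Sars, Aars, Cars and Hars did not pass after correction, and Cars changed sign, to 0.073. Among the 4 genes with TGATGCAA in their promoters, Iars and Tars had positive and Yars and Aars negative log2 changes in this comparison. Hars and Hars2 start from opposite strands and overlap by 198 bases, so their counts may be shared in part.

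Among mitochondrial synthetases in obese hosts, Rars2, the arginyl enzyme, rose most, by 1.84 ± 0.34 (adjusted p = 6.7e-05), and it was the only one still higher after the correction, at 0.76 (adjusted p = 0.0106). Rars2 was at 12.5, 27.0, 29.2 and 14.3 CPM in lean midpoint, 15.7, 3.45, 3.90, 10.5 and 8.33 in obese midpoint, 28.0, 21.0, 22.3 and 30.1 in lean endpoint, and 29.5, 30.8, 29.2, 30.5 and 30.7 in obese endpoint libraries. The 5 obese endpoint libraries were nearly level, and the spread lay in the midpoint groups.

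Cars2, the mitochondrial cysteinyl enzyme, was the mitochondrial member that fell over time in both hosts and with or without the correction. It was at 10.3, 8.62, 7.55 and 13.2 CPM in lean midpoint, 11.1, 16.7, 15.9, 8.80 and 11.4 in obese midpoint, 5.33, 6.83, 4.68 and 6.32 in lean endpoint, and 5.32, 6.83, 6.47, 5.06 and 5.43 in obese endpoint libraries. No endpoint library reached the lowest midpoint one. Its log2 change was -1.13 ± 0.20 in obese (adjusted p = 5.83e-05) and -0.78 ± 0.23 in lean hosts (adjusted p = 0.0147), and -1.31 (adjusted p = 5.79e-05) and -0.80 (adjusted p = 0.0231) after correction. The lean call was lost without lean midpoint replicate 4 or lean endpoint replicate 3, with an adjusted p of up to 0.054. Cars2 shares 940 bases of its span with Naxd on the opposite strand.

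Vars2, the valyl enzyme, was at 54.3, 38.3, 40.9 and 58.6 CPM in lean midpoint, 54.3, 129, 108, 67.8 and 73.7 in obese midpoint, 23.7, 39.8, 32.5 and 33.3 in lean endpoint, and 29.1, 35.0, 30.3, 26.9 and 28.3 in obese endpoint libraries. It fell in obese hosts, with a log2 change of -1.53 ± 0.22 (adjusted p = 5.61e-06) and of -0.56 after correction (adjusted p = 4.78e-05). In lean hosts the value of -0.57 did not pass (adjusted p = 0.073). Fars2, the mitochondrial phenylalanyl enzyme, which works as a single chain, was at 24.2, 21.0, 19.3 and 24.7, then 23.0, 49.5, 41.9, 30.4 and 33.4, then 21.2, 21.5, 18.4 and 15.3, and then 13.9, 17, 14.8, 15.4 and 13.5 CPM in the same order of groups. Its obese libraries were separated by time, with a log2 change of -1.26 ± 0.18 (adjusted p = 7.77e-06) and of -0.59 after correction (adjusted p = 0.00059).

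Sars2 and Iars2 show how far the correction can carry a member. Sars2, the mitochondrial seryl enzyme, with 60.1% GC, was at 14.9, 13.6, 12.1 and 17.6 CPM in lean midpoint, 20.1, 36.8, 29.5, 18.5 and 23.4 in obese midpoint, 9.08, 15, 11.1 and 11.3 in lean endpoint, and 9.62, 11.8, 11.5, 9.79 and 9.88 in obese endpoint libraries. It fell by 1.29 on the log2 scale in obese hosts as counted (adjusted p = 1.1e-05) and was at 0.054 after correction (adjusted p = 0.685). Iars2, the isoleucyl enzyme, was at 132, 174, 183 and 117 CPM in lean midpoint, 160.1, 51.9, 60.3, 123 and 111 in obese midpoint, 233, 220.1, 284 and 177 in lean endpoint, and 177, 167, 176, 192 and 170.4 in obese endpoint libraries. Its rise of 0.80 (adjusted p = 0.00587) became -0.11 (adjusted p = 0.626). Iars2 also overlaps Rab3gap2 on the opposite strand by 2018 bases.

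Of the other mitochondrial members in obese hosts, Pars2 (-1.26), Tars2 (-0.79) and Ears2 (-0.50) fell both as counted and after correction, the corrected values being -0.84, -0.67 and -0.57. Hars2 and Wars2 were not called as counted and were lower after correction, at -0.88 and -0.78. Mars2, the methionyl enzyme and the member of lowest GC content, rose by 0.55 (adjusted p = 0.00327) as counted and was lower, at -1.41 (adjusted p = 2.43e-05), after correction. Nars2 likewise went from 0.68 (adjusted p = 0.0167) to -0.50 (adjusted p = 0.0312). Yars2 rose by 0.81 as counted and was at 0.11 after correction (adjusted p = 0.565), and Aars2 went from -1.05 to 0.15 (adjusted p = 0.276). Given these reversals, and that of Cars, no direction is assigned to Mars2, Nars2, Iars2, Sars2, Aars2, Wars2 and Cars.

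**Figure D3:**
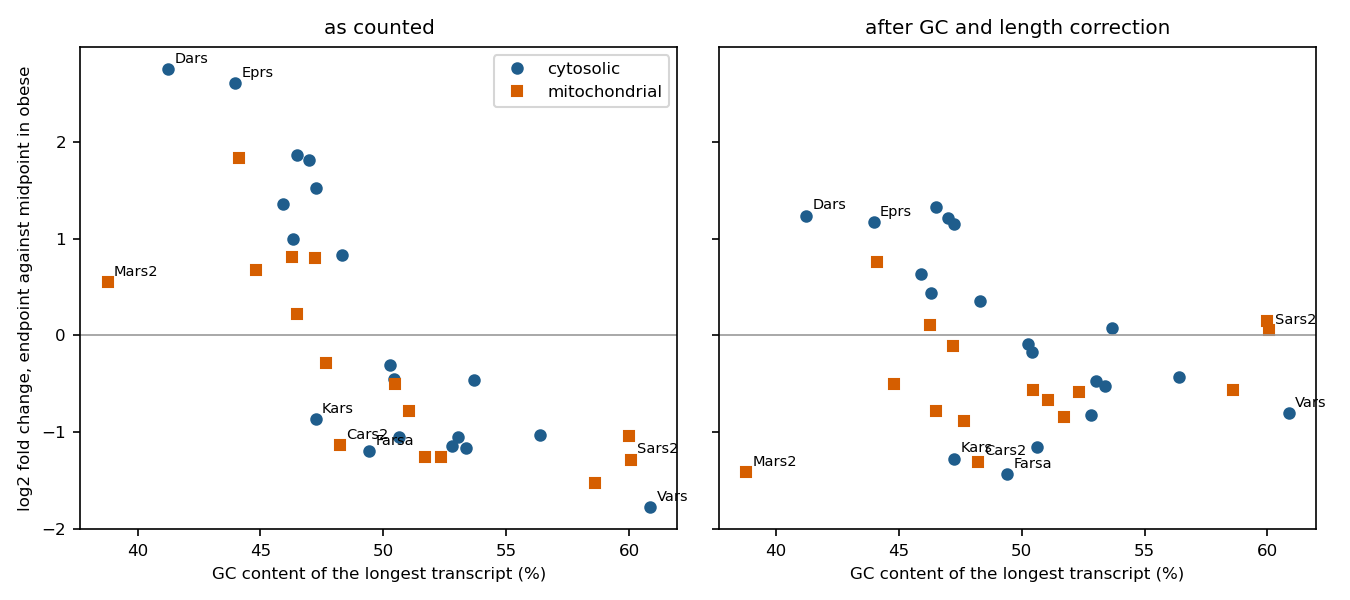
Log2 fold change of 34 synthetases, endpoint against midpoint in obese hosts, against the GC content of the longest transcript, as counted (left) and after the GC and length correction (right); circles are cytosolic and squares mitochondrial enzymes. As counted, the highest points lie at low GC content and the lowest at high GC content (r = -0.76); after correction r was -0.25, with Kars, Farsa, Cars2 and Mars2 among the lowest.

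Pairs that load the same amino acid in both compartments can be set side by side. Of 11 such pairs in obese hosts over time, both members were called in the same direction in 7 and in opposite directions in 2, and in 2 pairs at least 1 member was not called. Of those 7, 5 hold a gene to which no direction is assigned. After the GC and length correction 2 pairs were called in the same direction, both lower (Vars with Vars2, Wars with Wars2). Called in opposite directions were 2 (Nars higher with Nars2 lower, Tars higher with Tars2 lower), and in 7 at least 1 member was not called. No direction is assigned to Wars2 or Nars2, which leaves Vars with Vars2 and Tars with Tars2. Per kb, the ratio of Wars to Wars2 was 8.90 ± 2.04 (SD, n = 4) in lean midpoint, 12.95 ± 3.61 (n = 5) in obese midpoint, 5.21 ± 0.89 (n = 4) in lean endpoint and 4.82 ± 0.47 (n = 5) in obese endpoint libraries. No endpoint library reached the lowest midpoint ratio of 7.05. The ratio of Nars to Nars2 stood at 35.1 ± 5.0, 25.1 ± 6.5, 48.9 ± 11.8 and 47.4 ± 3.7 in the same order, and that of Iars to Iars2 at 1.61 ± 0.17, 1.85 ± 0.37, 1.28 ± 0.49 and 1.79 ± 0.19.

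In lean hosts fewer members changed over time. Of the cytosolic enzymes 2 rose, Eprs and Dars, and 6 fell, namely Kars, Wars, Vars (-0.90), Yars (-0.65), Farsa (-0.54) and Gars (-0.44), and of the mitochondrial enzymes 0 rose and Cars2 fell. The background in this comparison was 30.9% of all genes called, 21.4% higher and 9.5% lower. The median log2 change was -0.25 for the cytosolic and -0.13 for the mitochondrial class, beside 0.036 over all genes tested. After the GC and length correction, 1 cytosolic member was higher and 4 were lower, and 2 mitochondrial members were lower, Cars2 and Mars2, beside 23.3% of all genes (14.9% higher, 8.47% lower). The calls that held with and without the correction were those of Eprs, Kars, Wars, Vars, Farsa and Cars2. Of these, leaving out 1 library at a time cost the Farsa call in 7 fits, the Vars call in 4 and the Cars2 call in 2. The adjusted p rose to at most 0.109 for Farsa and 0.0886 for Vars. The calls of Eprs, Kars and Wars were kept in each such fit. Without lean endpoint replicate 1, the library with the high mitochondrial share, the counts stayed at 8 and 1, though Vars, Farsa and Gars were no longer called and 3 other cytosolic members were. Without lean endpoint replicate 3, or without lean midpoint replicate 4, the counts were 4 and 0. The cytosolic count was also 4 without lean midpoint replicate 1. Of all genes, 23% were called without lean endpoint replicate 1 and 20.7% without lean endpoint replicate 3. The shares were 19.5% without lean midpoint replicate 1 and 20.2% without lean midpoint replicate 4.

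**Figure D4:**
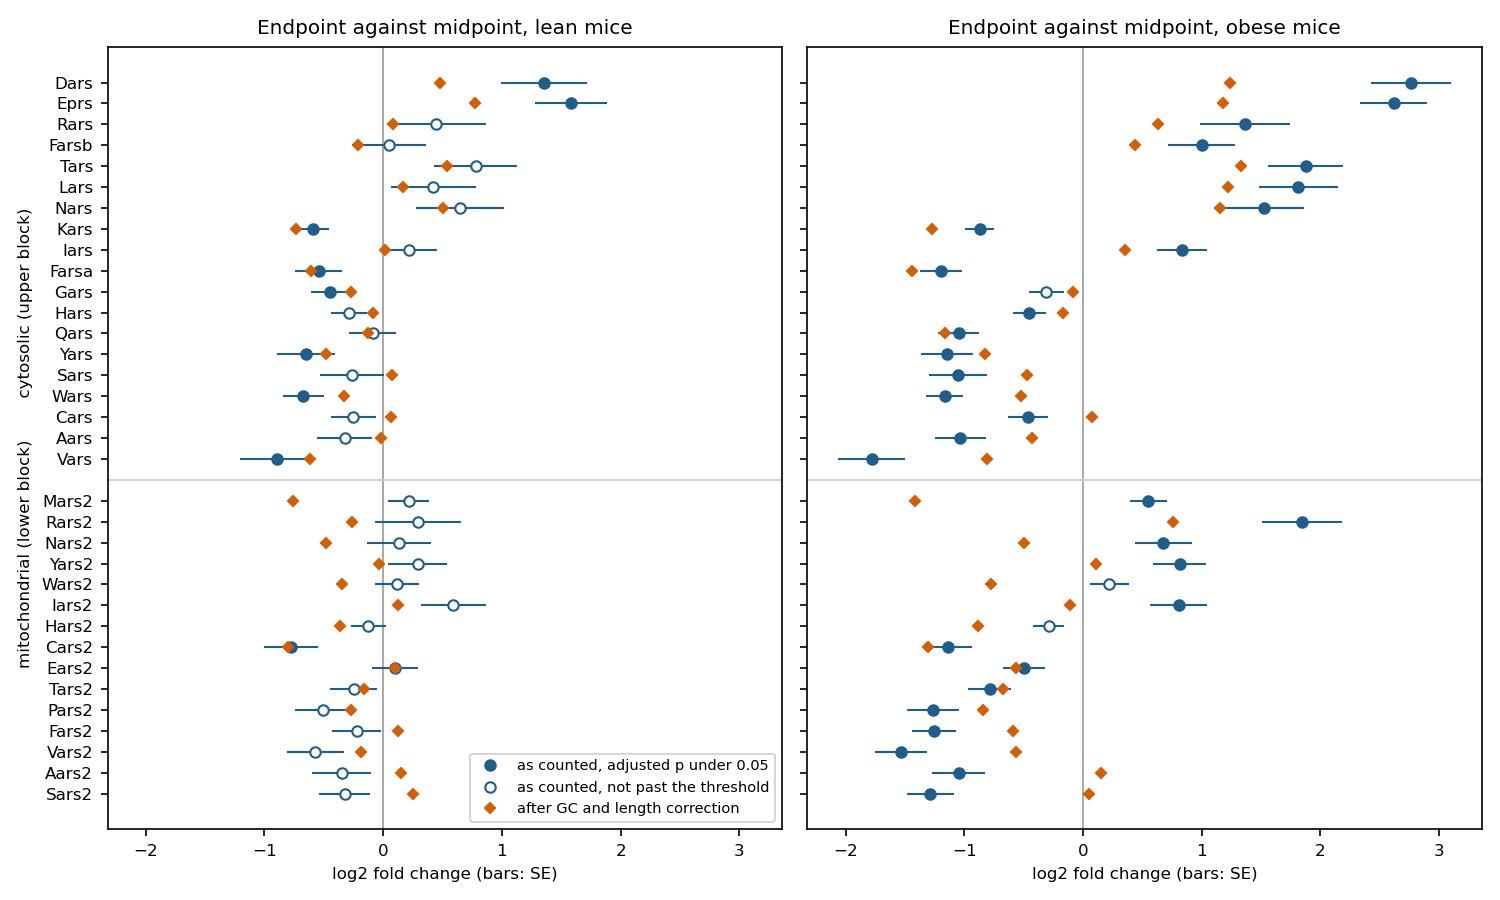
Log2 fold change from midpoint to endpoint for 34 synthetases in lean (left) and obese hosts (right), with bars for 1 SE; filled circles passed an adjusted p of 0.05 as counted, open circles did not, and diamonds give the value after the GC and length correction. Eprs and Dars lie farthest to the right in both panels as counted, and the diamonds of Mars2 lie left of 0 where the circles lie right of it.

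The question of whether the obese host changed the family was asked at each time. At midpoint, 4 cytosolic members were higher in obese hosts (Farsa, Qars, Wars and Vars) and 4 were lower (Dars, Lars, Tars and Farsb), and 5 mitochondrial members were higher (Sars2, Vars2, Aars2, Fars2 and Tars2) and 1 was lower (Rars2). Of all genes tested 29.5% were called, 16.7% higher and 12.8% lower, and the counts of called members are read against that share. The median log2 change was 0.077 for the cytosolic and 0.36 for the mitochondrial class, beside -0.0010 over all genes. After the GC and length correction 6.76% of all genes were called, 4.15% higher and 2.61% lower, and the members called were Farsa, Qars, Kars and Tars2 as higher and Dars and Rars2 as lower.

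Farsa was higher in obese midpoint tumors by 0.68 ± 0.19 on the log2 scale (adjusted p = 0.0304) and by 0.87 after correction (adjusted p = 0.0371). Its lean and obese midpoint libraries nearly touched, the highest lean and the lowest obese library both being at 106 CPM. Rars2 was lower, at -1.30 ± 0.35 (adjusted p = 0.0304), and at -0.85 after correction (adjusted p = 0.047). Dars was at -1.21 ± 0.34 and -0.71 (adjusted p = 0.0304 and 0.0463), and Qars at 0.58 ± 0.19 and 0.63 (adjusted p = 0.0335 and 0.0479). In Dars and Rars2 the obese midpoint libraries ran from the lowest of all to within the lean range.
The highest lean midpoint level of Wars, 55.5 CPM, lay under its lowest obese midpoint level, 57.1, and Wars was higher at 0.54 ± 0.16 (adjusted p = 0.0311). Its corrected value of 0.28 did not pass (adjusted p = 0.112), nor did those of Sars2 (0.82 as counted, 0.095 corrected), Vars2 (0.85 and 0.26) or Fars2 (0.68 and 0.41).

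The midpoint calls rested on a few libraries. Leaving out any of lean midpoint replicates 2 and 3 or obese midpoint replicates 2 and 3 left 0 members called in either class, as well as 0 of all genes. Leaving out obese midpoint replicate 1 raised the counts to 15 and 10, with 48.8% of all genes called. With the midpoint groups fitted alone, or with the mean log2 CPM of the 9 pan-leukocyte markers as a covariate, 0 members were called. The same held for all genes, of which 6314 and 5579 had an unadjusted p under 0.05. The 9 pan-leukocyte markers summed to 1053 to 1216 CPM in lean midpoint, 1232 to 1892 in obese midpoint, 623 to 1170 in lean endpoint and 703 to 946 in obese endpoint libraries, most of it Arhgdib. Most of these markers did not follow the sum: their mean log2 CPM was 4.63 ± 0.27 (SD, n = 4) in lean and 4.03 ± 0.25 (n = 5) in obese midpoint libraries, with 2 markers higher and 3 lower. The 14 macrophage and monocyte markers had a mean log2 CPM of 4.25 ± 0.51 and 3.35 ± 0.35 in the same groups, with 0 higher and 4 lower. The part of these markers in the midpoint difference was not tested beyond that covariate.

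At endpoint no member passed the test between obese and lean hosts: edgeR called 0 of 19 cytosolic and 0 of 15 mitochondrial members, DESeq2 also called 0 in each class, and 0 in each had an unadjusted p under 0.05. Of all genes 0.00612% were called, which is 1 gene, with 0 called lower. The log2 differences ran from -0.38 (Qars, SE 0.18) to 0.39 (Eprs, SE 0.28) in the cytosolic and from -0.37 (Iars2, SE 0.26) to 0.25 (Rars2, SE 0.35) in the mitochondrial class. Fars2, with the smallest unadjusted p of the mitochondrial class, was at -0.36 (SE 0.19). For each of these genes the lean and obese endpoint libraries overlapped.

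The test of whether the change over time differed between hosts called 0 members in both classes and 0 genes in all (0%). In this test 11 cytosolic and 7 mitochondrial members had an unadjusted p under 0.05, the smallest adjusted p was 0.0983, and DESeq2 called 3 in each class, beside 9.52% of all genes. Without obese midpoint replicate 1, edgeR called 11 and 7, beside 34.8% of all genes. A change called in obese and not in lean hosts, as for Qars, Vars2 or Rars2, is therefore not shown to differ between them, with interaction values of -0.96 (adjusted p = 0.0983), -0.96 (adjusted p = 0.0983) and 1.55 (adjusted p = 0.0983).

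Counts for genes that work beside the synthetases are read against the shares of all genes called, 29.5% between hosts at midpoint and 73.9% over time in obese hosts (54.5% after correction). Of 10 scaffold and tRNA handling genes, 2 were higher and 1 lower in obese midpoint tumors, and over time in obese hosts 3 rose and 5 fell, against 1 and 5 after correction. Aimp2, a scaffold protein of the multisynthetase complex, fell by 1.08 on the log2 scale over time (adjusted p = 1.89e-05), and its corrected value was -0.14 (adjusted p = 0.296). Osgep, which helps modify tRNAs that read codons starting with A, fell with and without correction (-1.21 and -1.55). Of 12 mitochondrial tRNA charging partners, 3 rose and 5 fell over time in obese hosts, with 3 higher and 4 lower after correction. Trnt1, which adds the CCA end to which every amino acid is joined, rose by 3.13 in obese (adjusted p = 6.6e-07) and 2.16 in lean hosts (adjusted p = 0.000459), and by 1.27 and 1.04 after correction. Mtif2, the mitochondrial initiation factor, rose by 3.12 and 1.97, and by 1.93 and 1.30 after correction, while Tsfm, an elongation factor of the same compartment, fell by 1.05 in obese hosts (-0.88 after correction).

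The amino acid response list, 24 of whose 26 genes were tested, had 9 members higher and 1 lower in obese midpoint tumors, and 5 and 0 after correction, beside 29.5% and 6.76% of all genes called in either direction. Slc7a5, the large neutral amino acid transporter, led with 1.11 ± 0.25 (adjusted p = 0.0304), and was at 0.58 after correction (adjusted p = 0.0427). Over time in obese hosts 3 of the list rose and 15 fell, against 7 and 6 after correction, beside 73.9% and 54.5% of all genes. Slc38a2, a glutamine and alanine transporter (1.87, adjusted p = 5.27e-07), and Cebpg, a partner of ATF4 (2.34, adjusted p = 5.35e-07), rose in that comparison, and Slc7a5 fell by 1.86 (adjusted p = 1.75e-06). In lean hosts 4 rose and 5 fell over time, beside 30.9% of all genes, and between hosts at endpoint 0 were called. Of 15 interferon-gamma response genes tested, 0 were higher and 5 lower in obese midpoint tumors, where Wars was higher and 29.5% of all genes were called, and 0 and 0 were called after correction. Cd274, an immune checkpoint ligand, was lower at -1.19 (adjusted p = 0.0313) and Cxcl10, a chemokine, at -0.88 (adjusted p = 0.0355). Over time in obese hosts 8 of these genes rose and 4 fell, again beside 73.9% of all genes, Gbp3 by 2.93 upward (adjusted p = 8.98e-06) and Tap1 by -1.29 (adjusted p = 9.31e-06), while Wars fell.

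Lars2 behaved unlike the other members. It was at 99.8, 12.7, 13.8 and 14.5 CPM in lean midpoint, 11.1, 38.4, 53.5, 48.4 and 64.0 in obese midpoint, 1577, 354, 43.8 and 35.6 in lean endpoint replicates 1, 2, 3 and 5, and 37.7, 73.9, 29.6, 21.2 and 21.1 in obese endpoint libraries. Lean endpoint replicate 1, at 1577 CPM, is the library with the highest share of counts on rRNA-like genes. Over time in lean hosts the log2 change was 3.83 ± 1.00 (adjusted p = 0.00731), and without lean endpoint replicate 1 it was 2.02 with an adjusted p of 0.0794. Between hosts at endpoint it was -3.77 ± 0.91 and did not pass (adjusted p = 0.556).

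In 8 relations, Lars2 was set beside 4 rRNA-like genes within each time point, over 9 libraries of both hosts, on log2(CPM + 0.5). At midpoint its level followed Gm15564 with Pearson's r of 0.97 and Spearman's rho of 0.95 (exact permutation p = 4.68e-05 and 0.000353, adjusted p = 0.000375 and 0.00282), and r was 0.95 without the 2 libraries farthest from the median (exact permutation p = 0.00159). Gm15564 itself was low in the midpoint libraries, at 0.322 to 3.06 CPM, or 20 to 182 counts. Gm42418 had r of 0.76 and rho of 0.85 at midpoint (exact permutation p = 0.0131 and 0.00607, adjusted p = 0.0262 and 0.0243), and r of 0.90 without the 2 farthest. At endpoint Gm42418 had r of 0.94 and rho of 0.75 (exact permutation p = 0.00116 and 0.0255, adjusted p = 0.00463 and 0.051), but r fell to 0.61 (exact permutation p = 0.147) without the 2 farthest, so that relation rests on those libraries. Only the midpoint relations with Gm15564 and Gm42418 passed in both measures after adjustment. Gm26917 ran opposite to Lars2 at endpoint, with r of -0.72 and rho of -0.40 (exact permutation p = 0.0388 and 0.291, adjusted p = 0.0517 and 0.3125). Its r was 0.017 without the 2 farthest. No diet or time effect on Lars2 is drawn from these values.

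**Figure D5:**
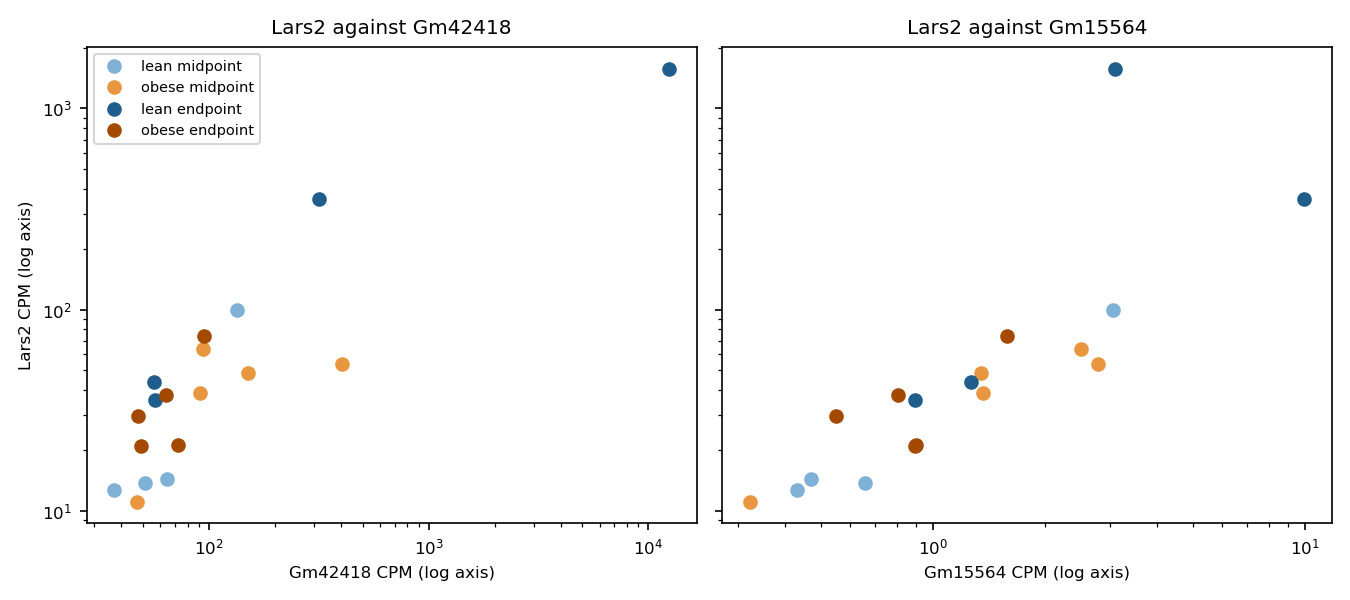
CPM of Lars2 (vertical, log axis) against CPM of the rRNA-like genes Gm42418 (left) and Gm15564 (right, both log axes), with 1 point per library coloured by group. Lean endpoint replicate 1, with 1577 CPM of Lars2, is also farthest right for Gm42418, and the midpoint libraries rise together with Gm15564.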

How the data were processed

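The authors deposited 1 table of counts, whole numbers per gene that were not normalized, for 19 libraries and 39017 genes. The endpoint columns hold the same raw counts as the midpoint columns. The deposited length column was used as another measure, in bases, for levels per kilobase. TopHat, DESeq and the build mm10 are named, per the submitters' processing notes, without versions; which program counted the reads, with what strand setting, is not stated there. Identifiers were matched to GENCODE symbols (37607 of 39017). Where overlapping genes or near-identical copies share reads, counts are uncertain; 13 of 35 members overlap a gene on the opposite strand.

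Lean endpoint replicate 4 was left out. The other 18 libraries were tested across all 16352 genes passing edgeR's expression filter, with edgeR 4.0.16 (TMM factors, quasi-likelihood test, 4 groups, no covariate) in R 4.3.3, and Benjamini-Hochberg adjustment at 0.05. The GC and length correction subtracted per-library natural splines (5 degrees of freedom each) of GC content of the longest transcript and of length, as offsets. Alternatives were DESeq2 1.42.0, other size factors and filters, only the groups compared, a replicate block, a pan-leukocyte covariate and leaving out each library. The procedure was also run on simulated counts with known changes in the obese midpoint group. These counts had no GC trend, so the run does not bear on that trend, and its outcome is not given here. Named members are the 2 with the smallest unadjusted p per class and host or time comparison, plus Wars, Gars, Kars, Eprs and Lars2; up to 3 genes per pathway list were named likewise, and Farsb was added as the partner of Farsa after values were seen. The members and lists were chosen with earlier results of these data known. No 2 replicates were repeats of 1 library: in 32 pairs the chi-square per degree of freedom was at least 35.7. Each library came from a separate tumor, so p-values measure the spread between tumors and between their libraries together.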

Additional observations from a re-analysis of the deposited data

Results flagged for a closer look

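Of 152 sets of 4 or 5 values, each for 1 gene or class measure in 1 group, 5 held a library far from the others. Chance gives about 1 in 20, a rate that these flags did not exceed. Gars was highest in lean midpoint replicate 1, at 332 CPM against 307 to 309.7 in the other lean midpoint libraries. Kars was lowest in lean endpoint replicate 3, at 313 CPM against 395 to 403. Sars was lowest in obese endpoint replicate 5, at 301 CPM against 382 to 411. Tars2 was lowest in obese endpoint replicate 4, at 27.1 CPM against 30.5 to 31.9. Lars2 was highest in lean midpoint replicate 1, at 99.8 CPM against 12.7 to 14.5.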

How the results depend on the processing

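Cytosolic members called between hosts at midpoint were 8, against 13 with a filter of 5 CPM in 4 libraries and 4 with the GC and length correction. With only those groups, or with the pan-leukocyte covariate, they were 0. The 6 mitochondrial calls became 2 with the correction and 0 with only those groups or the covariate. Of all genes, 29.5% were called in the main fit, 49.7% with that filter and 6.76% with the correction. With those groups alone or the covariate the share was 0%. Over time in lean hosts the 8 cytosolic calls became 5 with the replicate block, 5 with the correction and 4 with the covariate. The mitochondrial call became 3 with only those groups and 2 with the correction. The shares of all genes were 30.9% in the main fit, 22.8% with the block, 23.3% with the correction, 22.2% with the covariate and 37% with only those groups. In obese hosts the 18 cytosolic calls became 11 with the correction, beside 73.9% and 54.5% of all genes. The interaction had 0 calls, and 3 in each class by DESeq2, beside 0% and 9.52% of all genes. In no comparison did every same-numbered pair deviate together: the correlations ran from -0.40 to 0.55, some above 0.1 between hosts at endpoint and over time in obese hosts. The replicate block is therefore not taken as a pairing. With it the cytosolic and mitochondrial counts were 11 and 6 at midpoint, 0 and 0 at endpoint, 5 and 1 in lean, 18 and 13 in obese hosts, and 0 and 0 for the interaction. The shares of all genes with the block were 26.9%, 0%, 22.8%, 72.6% and 0% in that order.

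Leaving out 1 library gave 0 to 15 cytosolic and 0 to 10 mitochondrial calls at midpoint, 0 at endpoint, 4 to 9 and 0 to 2 in lean hosts, 18 to 19 and 13 to 14 in obese hosts, and 0 to 11 and 0 to 7 for the interaction. The shares of all genes in these fits ran from 0% to 48.8% at midpoint and 0% to 0.00615% at endpoint. They ran from 19.5% to 38.8% in lean hosts, 70.8% to 76.2% in obese hosts and 0% to 34.8% for the interaction. With the correction, values in obese hosts turned to -1.41 (Mars2), -0.11 (Iars2), 0.054 (Sars2), -0.50 (Nars2), 0.073 (Cars) and 0.15 (Aars2). Lars2 between hosts at midpoint ranged from -0.020 to 1.62. Without a filter on low counts the median of all genes was 0.16 over time in obese hosts and 0.20 for the interaction. Without that filter the cytosolic calls at midpoint split into 2 higher and 6 lower, beside 12.4% of all genes called. Neither that filter nor the size factors reversed the direction of a member named above.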
